A study of Mus musculus with 8 samples.

Results

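The transcripts of 8 genes that mark CXCL12-abundant stroma of the bone marrow (Cxcl12, Lepr, Kitl, Adipoq, Foxc1, Ebf3, Pdgfra and Pdgfrb) were followed in sorted growth plate cells of mice given SAG or vehicle. The 8 genes were chosen by name, all 8 were among the 16536 genes of the count table, and all 8 were among the 15421 genes that passed the filter on low counts. RNA was sequenced from mCherry+CD73+ cells of Pthrp-mCherry mice, a reporter line for Pthlh, which encodes PTHrP; CD73 is the surface enzyme encoded by Nt5e. Cells from the 2 femoral growth plates of each mouse made 1 library. Control mice (DMSO, n = 4) received dimethyl sulfoxide, and treated mice (SAG, n = 4) received SAG, an agonist of Smoothened that activates Hedgehog signalling. Injection was intraperitoneal and daily from P30 to P36, with sacrifice at P38. The P30 to P36 schedule is that of the deposited design and of the study's results for these mice, whereas its general methods give systemic injection 1 day later. All 8 mice carried the mCherry reporter, and the labels give the tissue as metaphyseal growth plate. Sex was not given per mouse.

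CXCL12-abundant reticular cells are perivascular stromal cells of the marrow, best known for holding haematopoietic stem cells and B cell progenitors in their niche. They secrete CXCL12, the chemokine that retains cells carrying the receptor CXCR4, and stem cell factor, the product of Kitl, which signals through KIT. They carry the leptin receptor, express the adipocyte hormone gene Adipoq before any fat is stored, and depend on the transcription factors FOXC1 and EBF3 to keep this state and to keep their marrow space free of bone. PDGFRα and PDGFRβ, the receptors for platelet-derived growth factors, are found on these cells and on many other mesenchymal cells.

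None of the 8 genes was called changed between the SAG and DMSO libraries, and for each of them the 4 values of one group overlapped the 4 of the other. Cxcl12, Lepr and Adipoq had higher fitted levels with SAG and Kitl, Foxc1, Ebf3, Pdgfra and Pdgfrb lower ones, with a median log2 fold change over the 8 of -0.44 beside -0.08 over all tested genes. In edgeR's quasi-likelihood test with Benjamini-Hochberg adjustment over all tested genes, 404 genes were called higher (2.62%) and 41 lower (0.266%) at an adjusted p under 0.05, shares at which 0 of 8 is no result about these genes. At an unadjusted p under 0.05, 0 of the 8 were higher, where the share over all tested genes was 9.58%, and 1 of the 8, Foxc1, was lower, where it was 6.5%. DESeq2 called 0 of the 8 and gave Kitl and Adipoq no adjusted p, against 6.82% of all genes higher and 3.45% lower, and limma voom with sample quality weights called 1, Foxc1, lower, against 2.58% of all genes lower and 6.45% higher. Intervals around the fold changes were wide: each of them but that of Foxc1 included 0, and those of Kitl and Adipoq spanned more than 6 log2 units. Apart from those of Foxc1 and Pdgfrb, every interval spanned more than 2 log2 units.

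The libraries held 24971992 to 46593090 counts, and DMSO 4 had both the fewest counts and the fewest genes detected (14416, against 15524 to 16285 in the other 7). All values below are CPM, a gene's count divided by the library's TMM-scaled total and set to a common library size, unless a scale per kb is named. The cartilage genes were abundant in every library, with Col2a1, the main collagen of cartilage, at 32463 to 68832 CPM with DMSO and 11759 to 34149 CPM with SAG. Both genes of the gate were present in all 8 libraries. Pthlh was at 14.9 to 22.1 CPM with DMSO and 18.4 to 29.9 CPM with SAG (log2 fold change 0.37, adjusted p = 0.606). Nt5e was at 184 to 270 CPM with DMSO and at 149 to 174 CPM with SAG (log2 fold change -0.51, adjusted p = 0.186), without overlap of the groups; groups did not overlap in that direction for 3.84% of all tested genes. In these bulk libraries, fewer cells of a type and less RNA per cell cannot be told apart.

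Cxcl12 (ENSMUSG00000061353.11, GRCm38 chr6:117168535-117181367, plus strand) encodes the chemokine that gives these stromal cells their name. With DMSO it was at 52.9, 15.9, 19.5 and 8.01 CPM in mice 1 to 4, and with SAG at 76.9, 51.4, 14.9 and 46.2 CPM. SAG 1 and DMSO 1 were the highest libraries, DMSO 4 was the lowest, and SAG 3 lay below DMSO 1, 2 and 3. The group means were 24.1 ± 19.8 CPM and 47.3 ± 25.5 CPM (SD, n = 4 each), with a log2 fold change of 0.97 ± 0.57 (SE), a 95% interval of -0.28 to 2.23 and an adjusted p of 0.465. The fitted change was above 0 in all 16 alternative fits, between 0.64 and 1.71, and was called in none of them. Its highest value came without DMSO 1.

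**Figure D1:**
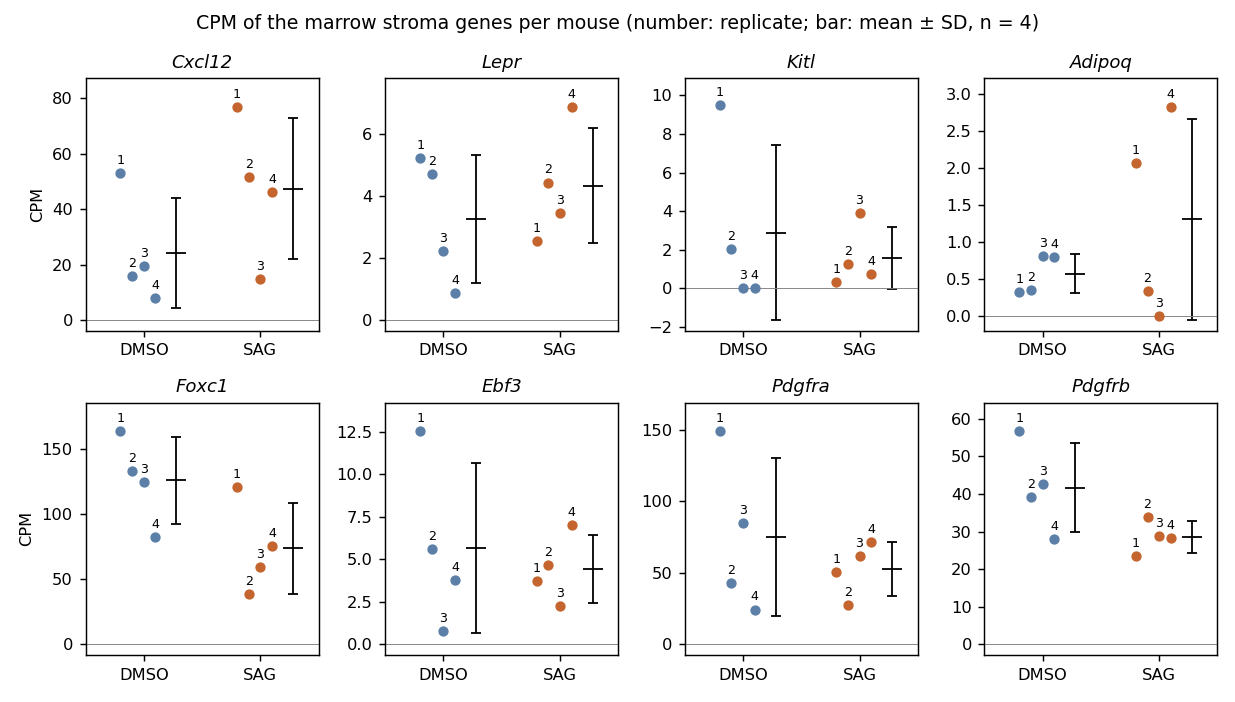
CPM of each marrow stroma gene (y axes, linear, a scale per panel) in the DMSO and SAG mice (x axis); points are single mice numbered by replicate, and bars give the mean ± SD of 4 mice. The groups overlap in all 8 panels, and DMSO 1 is the highest mouse of all in the Kitl, Foxc1, Ebf3, Pdgfra and Pdgfrb panels.

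Kitl (ENSMUSG00000019966.18, chr10:100015630-100100416, plus strand), the gene of stem cell factor, was the other niche ligand. It was at 9.51 and 2.03 CPM in DMSO 1 and 2, at 0 counts in DMSO 3 and 4, and at 0.316, 1.26, 3.89 and 0.753 CPM in SAG 1 to 4. A count of 0 allows up to 0.0906 CPM in DMSO 3 and 0.114 CPM in DMSO 4, for counting error only, so that the DMSO group held both the highest and the lowest values. The log2 fold change was -0.89 ± 1.70 (SE), with a 95% interval of -4.61 to 2.82 and an adjusted p of 0.869. Without DMSO 1 it was 1.19, so that 1 library set its sign. Its biological coefficient of variation, the spread between mice of a group beyond counting error, was 1.56, above that of 96.5% of tested genes.

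Lepr (ENSMUSG00000057722.17, chr4:101717404-101815352, plus strand) encodes the leptin receptor, the surface marker most used for these cells in adult marrow. It was at 5.22, 4.73, 2.23 and 0.873 CPM in DMSO 1 to 4 and at 2.56, 4.44, 3.46 and 6.89 CPM in SAG 1 to 4, where the lowest SAG mouse lay among the DMSO mice. On the log2 scale SAG and DMSO differed by 0.41 ± 0.75 (SE), with a 95% interval of -1.24 to 2.05 and an adjusted p of 0.865. Leprot, which starts at the same locus and encodes a small membrane protein, was more abundant at 13.6 to 38.4 CPM with DMSO and 19.6 to 31.8 CPM with SAG (log2 fold change 0.03, adjusted p = 0.985). No exon of Lepr overlaps one of Leprot in the GENCODE M21 annotation.

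Adipoq (ENSMUSG00000022878.5, chr16:23146536-23158028, plus strand), the gene of adiponectin, was the least abundant of the 8 in mean CPM. It had 14 to 27 counts in each DMSO library, or 0.326, 0.357, 0.815 and 0.797 CPM in mice 1 to 4. With SAG it was at 2.07 and 2.83 CPM in mice 1 and 4, at 0.333 CPM in mouse 2, and at 0 counts in mouse 3, which allows up to 0.0747 CPM. SAG 1 and 4 thus lay above all DMSO mice and SAG 3 below them. Its fitted log2 fold change was 1.19 ± 1.48 (SE), with a 95% interval of -2.07 to 4.44 and an adjusted p of 0.780, and limma voom gave -0.37. Plin1, which coats the lipid droplets of fat cells, was at 1.52 to 3.64 CPM with DMSO and 1.67 to 2.87 CPM with SAG, and Pck1, another gene of mature adipocytes, was at 0 counts in DMSO 4 and SAG 3.

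Foxc1 (ENSMUSG00000050295.4, chr13:31806633-31812476, plus strand), a forkhead transcription factor gene with 1 exon, was the most abundant of the 8. It was at 163, 133, 125 and 82.3 CPM in DMSO 1 to 4 and at 121, 38.8, 59.1 and 75.5 CPM in SAG 1 to 4. SAG 2, 3 and 4 lay below every DMSO mouse and SAG 1 lay above DMSO 4. The group means were 126 ± 33.4 CPM and 73.5 ± 34.8 CPM (SD, n = 4 each). The log2 fold change was -0.78 ± 0.33 (SE), with a 95% interval of -1.49 to -0.06 and an adjusted p of 0.262 in edgeR, while limma voom gave -0.99 with an adjusted p of 0.0373. Over the 16 alternative fits the adjusted p ranged from 0.0373 to 0.545 and the fold change stayed below 0.

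Ebf3 (ENSMUSG00000010476.14, chr7:137193673-137314445, minus strand), the gene of an early B cell factor family member, was at 12.5, 5.58, 0.755 and 3.80 CPM in DMSO 1 to 4 and at 3.74, 4.66, 2.24 and 7.02 CPM in SAG 1 to 4. All SAG mice lay within the range of the DMSO mice. Its fitted log2 fold change was -0.36 ± 0.78 (SE), with a 95% interval of -2.08 to 1.36 and an adjusted p of 0.887, and it was 0.39 without DMSO 1. Antisense Gm45278 overlaps 355 bases of its exons, and no row of the table carried that symbol.

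The platelet-derived growth factor receptor genes were intermediate in level. Pdgfra (ENSMUSG00000029231.15, chr5:75152292-75198215, plus strand) was at 149, 42.5, 84.9 and 24.3 CPM in DMSO 1 to 4 and at 50.2, 27.2, 61.6 and 71.4 CPM in SAG 1 to 4. Its SAG values were inside the DMSO range, which was set by DMSO 1 and DMSO 4. For Pdgfra the log2 fold change was -0.51 ± 0.49 (SE), with a 95% interval of -1.58 to 0.55 and an adjusted p of 0.689, and it was 0.06 without DMSO 1. Pdgfrb (ENSMUSG00000024620.11) was at 56.7, 39.3, 42.7 and 28.0 CPM in DMSO 1 to 4 and at 23.5, 33.8, 28.7 and 28.2 CPM in SAG 1 to 4. DMSO 4 lay below SAG 2, 3 and 4, and the other DMSO mice lay above all SAG mice. The log2 fold change of Pdgfrb was -0.55 ± 0.27 (SE), with a 95% interval of -1.13 to 0.04 and an adjusted p of 0.352. Its biological coefficient of variation, 0.301, was the lowest of the 8.

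**Figure D2:**
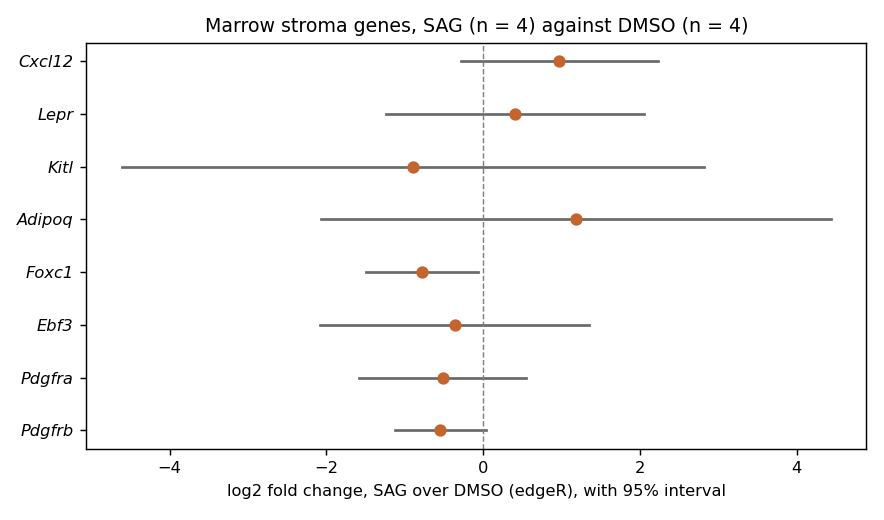
log2 fold change of each marrow stroma gene, SAG over DMSO (x axis), from edgeR on 4 libraries a group; points are estimates and lines 95% intervals. The interval of Foxc1, -1.49 to -0.06, is the one that does not include 0, and its adjusted p was 0.262.

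Per kb of exon, the 8 genes formed a high and a low set. Foxc1 was highest at 21.5 ± 5.72 CPM per kb with DMSO and 12.6 ± 5.95 with SAG, followed by Pdgfrb (7.61 ± 2.16 and 5.21 ± 0.768), Pdgfra (7.50 ± 5.52 and 5.25 ± 1.90) and Cxcl12 (2.94 ± 2.42 and 5.79 ± 3.11; SD, n = 4). Adipoq (0.416 ± 0.194 and 0.947 ± 0.985), Ebf3 (0.614 ± 0.540 and 0.479 ± 0.217), Lepr (0.463 ± 0.293 and 0.615 ± 0.265) and Kitl (0.488 ± 0.765 and 0.263 ± 0.271) made up the low set. Foxc1 was above Pdgfrb in 8 of 8 libraries, and Cxcl12 above Adipoq in 8 of 8. Pdgfrb was above Pdgfra in 3 of 8 libraries, Adipoq above Ebf3 in 4 of 8 and Ebf3 above Lepr in 3 of 8, so that these neighbours did not differ beyond their spread. With the length of the longest transcript in place of all exons, Pdgfra moved ahead of Pdgfrb and Ebf3 ahead of Adipoq, and the other 4 genes kept their places.

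Set against the 15410 tested genes with a known length, the mean level per kb of Foxc1 stood at the 84.1 percentile, those of Pdgfrb and Pdgfra at 64.0 and 63.9, and that of Cxcl12 at 54.3. Adipoq, Ebf3, Lepr and Kitl stood at the 18.2, 15.3, 15.2 and 10.6 percentiles. In marrow stroma Cxcl12 is among the most abundant messenger RNAs. Which cells the transcripts of the group came from was not tested here, and the genes are described by name only.

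The members' promoters also differ in base composition, which the choice of genes did not use. Windows of 250 bases upstream of the annotated start were taken from RefSeq (GRCm38.p6) for 7 of the 8 genes, 8 windows in all since Lepr has 2. The windows of Ebf3, Foxc1, Kitl and Cxcl12 held 43, 29, 23 and 14 CpG dinucleotides, those of Lepr 10 each and that of Pdgfra 4, whereas that of Adipoq held 0; the median over 32851 promoter windows was 6. The windows of Cxcl12 and Adipoq, the ligand that names the cells and the gene lowest in mean CPM, are printed 5′ to 3′ with each CpG in capitals to show this contrast. The Cxcl12 window is chr6:117168285-117168534 and the Adipoq window is chr16:23146286-23146535, both on the plus strand.
Cxcl12: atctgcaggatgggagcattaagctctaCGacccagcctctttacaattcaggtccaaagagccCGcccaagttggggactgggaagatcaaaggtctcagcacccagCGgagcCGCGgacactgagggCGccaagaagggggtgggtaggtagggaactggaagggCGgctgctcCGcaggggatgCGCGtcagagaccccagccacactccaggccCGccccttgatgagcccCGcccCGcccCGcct
Adipoq: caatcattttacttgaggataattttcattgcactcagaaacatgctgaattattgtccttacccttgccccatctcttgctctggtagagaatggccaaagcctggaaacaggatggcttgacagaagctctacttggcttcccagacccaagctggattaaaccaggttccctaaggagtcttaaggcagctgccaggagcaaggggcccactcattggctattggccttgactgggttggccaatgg
Both genes gave reads, so that the contrast says nothing of their response to SAG. The letters CCCNNGGG, the core that early B cell factors recognise and the same on both strands, were found in 1 of the 8 windows, that of Ebf3, and in 11.8% of all promoter windows. TGTTTA, a forkhead core searched on both strands, was found in 0 of the 8 windows and in 12.0% of all. A match is a description of letters, not a site.

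Over the 8 mice, the members did not share a profile. Likeness was measured as the root mean square difference of log2 CPM after centring each gene on its mean over the 8 libraries. Of the 28 pairs, the smallest differences were those between Foxc1 and Pdgfrb (0.58 log2 units), Pdgfra and Pdgfrb (0.66) and Foxc1 and Pdgfra (0.68). Cxcl12 was nearest to Lepr (0.90) and farthest from Kitl (2.39). Kitl and Adipoq, the genes with libraries at 0 counts, were the farthest apart of any pair (3.73). Among 13892 tested genes with a mean count of at least 50, the 3 nearest to Cxcl12 included Cdyl2 (0.42), which encodes a chromodomain protein, and Tsta3 (0.47), a gene of GDP-fucose synthesis, where the median gene was 1.23 away. The points are 8 libraries of 2 groups, which share depth and makeup, and these values are descriptions.

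**Figure D3:**
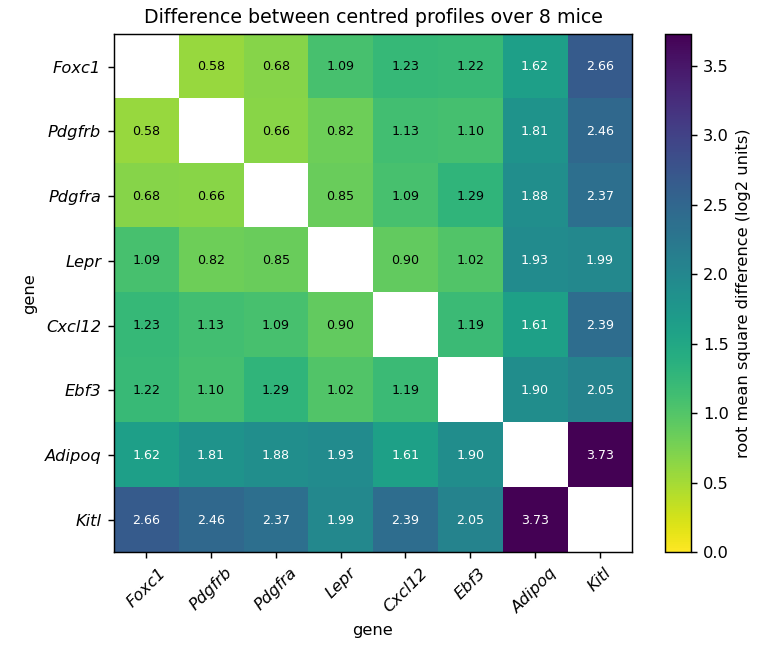
Root mean square difference (colour and number, log2 units) between the centred log2 CPM profiles of each pair of marrow stroma genes (both axes) over 8 mice; low values are like profiles. Foxc1, Pdgfrb and Pdgfra lie within 0.68 of each other, and every pair with Kitl is at 1.99 or above.

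DMSO 1 was the highest library of all for 5 of the 8 genes and the highest of its group for 7 of the 8, the exception being Adipoq. DMSO 4 was the lowest of its group for 6 of the 8, a tie for Kitl included. In DMSO 1 the summed level of 4 fibroblast genes (Clec3b, Dpt, Mfap5 and Pi16) was 282 CPM, against 52.2 to 83.8 CPM in the other DMSO mice and 120 to 184 CPM with SAG. Clec3b, Dpt and Mfap5 were highest of all 8 mice in DMSO 1, at 158, 54.9 and 19.8 CPM. Pi16 was at 33.9 to 49.7 CPM with DMSO and 76.4 to 132 CPM with SAG, so that the SAG sums were mostly Pi16. Col1a1, the main collagen of bone and fibrous tissue, was at 5971 CPM in DMSO 1, against 535 to 832 CPM in the other DMSO mice. The part of these differences in the members' values was not tested. Without DMSO 1 the median log2 fold change of the 8 genes was 0.56 in place of -0.44, and with the other 7 libraries left out in turn it ranged from -0.60 to -0.34.

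The abundance of cartilage transcripts also moved with the groups. The 10 chondrocyte genes made up 4.96% to 10.7% of all counts with DMSO and 1.83% to 5.09% with SAG. All 10 had a log2 fold change below 0, with a median of -1.01, as had 8457 of the 15421 tested genes. Of the 10, 0 were called by edgeR, 9 were lower at an unadjusted p under 0.05, and DESeq2 called 5 and limma voom 7. The shares lower over all tested genes were 6.5% at that unadjusted p, 3.45% with DESeq2 and 2.58% with limma voom. Without DMSO 4, edgeR called 7 of 10 lower, in a fit whose lower calls over all tested genes were 343, against 41 with all libraries. Col2a1 and Cnmd, which encodes chondromodulin, were the most abundant per kb (log2 fold changes -1.02 and -0.81), and the largest differences were those of Chad (-1.39) and Matn3 (-1.10), which encode cartilage matrix proteins. Because the share of cartilage RNA differed between mice, each member was also expressed per 1000 counts of these 10 genes in the same library, a scale chosen after the values had been seen. On it Foxc1 was at 1.53, 1.40, 1.49 and 1.75 in DMSO 1 to 4 and at 2.40, 2.07, 1.32 and 1.42 in SAG 1 to 4, a range of 1.82-fold where its CPM ranged 4.21-fold. The range of Pdgfra also narrowed, from 6.13-fold in CPM to 3.24-fold, and those of Pdgfrb, Cxcl12, Lepr and Ebf3 widened. The ratio of the group means of Foxc1, SAG over DMSO, was 1.17, where it was 0.584 in CPM. The 10 genes took a smaller share of counts with SAG, and on this scale the ratios of all members rose, by differing amounts. That of Kitl went from 0.538 to 1.58 and that of Adipoq from 2.28 to 3.35. A rise to a ratio above 1 is thus not particular to Foxc1. Foxc1 was also the member whose profile was nearest to the mean profile of the 10 genes (0.30 log2 units), with Pdgfrb and Pdgfra both at 0.62.

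Cxcl12, in contrast, was at 0.494, 0.168, 0.234 and 0.170 per 1000 chondrocyte counts in DMSO 1 to 4 and at 1.53, 2.75, 0.332 and 0.871 in SAG 1 to 4. SAG 3 still lay below DMSO 1, and the highest and lowest mice differed 16.4-fold. Lepr was at 0.0488, 0.0501, 0.0268 and 0.0186 in DMSO 1 to 4 and at 0.0509, 0.237, 0.0772 and 0.130 in SAG 1 to 4, where the groups just failed to overlap; on this scale that held for 20.7% of all tested genes with SAG higher and for 0.0778% with SAG lower. Pdgfrb was at 0.416 to 0.595 with DMSO and 0.467 to 0.640 in SAG 1, 3 and 4, with SAG 2 apart at 1.80. Pdgfra was at 0.449 to 1.39 with DMSO and 0.999 to 1.45 with SAG. Ebf3, Kitl and Adipoq overlapped between the groups. All 8 ratios of group means were above 1 on this scale, between 1.17 for Foxc1 and 5.14 for Cxcl12, where those of Kitl, Foxc1, Ebf3, Pdgfra and Pdgfrb were below 1 in CPM; no test was made on this scale.

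**Figure D4:**
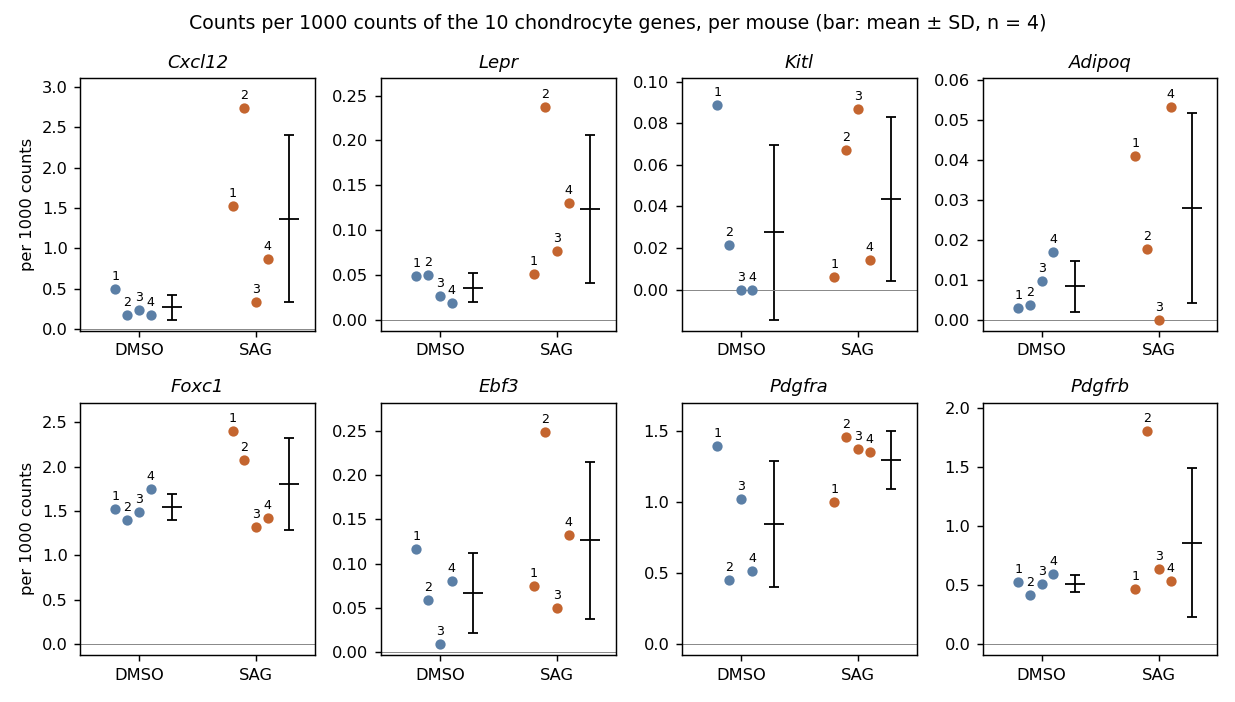
Counts of each marrow stroma gene per 1000 counts of 10 chondrocyte genes in the same library (y axes, linear, a scale per panel) for DMSO and SAG mice (x axis); points are single mice numbered by replicate, bars the mean ± SD of 4. Foxc1 stays between 1.32 and 2.40 in all 8 mice, whereas Cxcl12 ranges from 0.168 to 2.75.

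The partners of the members gave 0 calls in edgeR among 10 tested genes. At an unadjusted p under 0.05, 3 were higher and 0 lower, where the shares over all tested genes were 9.58% and 6.5%. Cxcr4, the receptor for CXCL12, was at 23.3, 37.7, 48.0 and 43.6 CPM in DMSO 1 to 4 and at 52.3, 137, 61.8 and 69.5 CPM in SAG 1 to 4. Every SAG mouse lay above every DMSO mouse, as for 7.9% of all tested genes, with a log2 fold change of 1.07 ± 0.33 (SE) and an adjusted p of 0.120 in edgeR. DESeq2 gave 1.04 and called it (adjusted p = 0.0437). Adipor1, a receptor for adiponectin, was at 168 to 293 CPM with DMSO and at 319 to 417 CPM with SAG (log2 fold change 0.85 ± 0.21, adjusted p = 0.0543), also without overlap, and Adipor2 stood at 0.52 on the log2 scale (adjusted p = 0.224). Kit, the receptor for the Kitl product, was at 11.9 to 20.5 CPM with DMSO and 9.94 to 47.6 CPM with SAG (adjusted p = 0.516). The ligand genes Pdgfa, Pdgfc and Pdgfd had log2 fold changes of -0.40, -0.49 and 0.24. Cxcr4 and Kit are also expressed by blood cells, and the part of blood cells in their values was not tested.

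Of 9 neutrophil granule and alarmin genes, 7 were called higher with SAG (Camp, Lcn2, Ltf, Ngp, Retnlg, S100a8 and S100a9), against 2.62% of all tested genes. This list, like the others, was chosen with earlier results of these data known, so that its count of calls is a description only. Its summed level was 4571 to 13835 CPM with DMSO and 26649.7 to 42027 CPM with SAG. Leaving out DMSO 3 left 3 calls of 9, and leaving out other libraries left 5 to 7. S100a9 was highest per kb with a log2 fold change of 2.00, S100a8 had 2.25 and Camp 2.19. Of 7 tested B lineage genes, 3 were called lower, against 0.266% of all tested genes. Cd79a and Pax5 were among them (log2 fold changes -2.67 and -3.61). The sum over 8 genes was 75.8 to 327 CPM with DMSO and 16.9 to 38.4 CPM with SAG. The 3 calls became 1 without DMSO 3, SAG 2, SAG 3 or SAG 4, and 2 without DMSO 2 or SAG 1. These genes mark blood cells, and their part in the members' values was not tested.

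Of 11 adipogenic stroma genes, all 11 had a log2 fold change above 0, as had 6964 of the 15421 tested genes. They ranged from 0.03 to 1.51 with a median of 0.53. Of the 11, 1 was called, where 2.62% of all tested genes were called higher, and the other 10 were not. Hp, which encodes haptoglobin and is abundant in neutrophils as well as in stroma and liver, was at 135, 103, 174 and 310 CPM in DMSO 1 to 4 and at 512, 559, 444 and 537 CPM in SAG 1 to 4. It was higher in every SAG mouse than in any DMSO mouse, as for 7.9% of all tested genes. Its log2 fold change was 1.51 ± 0.30 (SE), with an adjusted p of 0.0233 in edgeR. That call was lost without DMSO 1, 2 or 3 or SAG 2, 3 or 4, at adjusted p-values of 0.0509 to 0.105 and fold changes of 1.32 to 1.57. Apoe, the gene of apolipoprotein E and the most abundant of this list per kb, was at 993 to 2830 CPM with DMSO and 889 to 2818 CPM with SAG (log2 fold change 0.15). Pparg, the master regulator of adipogenesis, was at 0.357 to 3.07 CPM with DMSO and 1.52 to 8.25 CPM with SAG (log2 fold change 0.74, adjusted p = 0.788).

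Niche factors gave 0 calls in edgeR among 10 genes, and 0 at an unadjusted p under 0.05, with a median log2 fold change of -0.04. Vcam1, the adhesion molecule of stroma and one of the most abundant of the list per kb, was at 43.1 to 146 CPM with DMSO and 60.3 to 169 CPM with SAG (log2 fold change -0.05), and Csf1, the macrophage growth factor, had 0.05. Il15, a cytokine for natural killer and T cells, had the largest difference upward, 0.66 (adjusted p = 0.430), and Ptn, the gene of pleiotrophin, was at -0.64 (adjusted p = 0.846), with DMSO 4 at 0 counts. The stromal surface markers likewise gave 0 calls among 8 genes, and 0 at an unadjusted p under 0.05. Thy1 was at 105 to 477 CPM with DMSO and 145 to 181 CPM with SAG, Ly6a was at 0 counts in DMSO 4, and for Eng the log2 fold change was -0.78 at an adjusted p of 0.624.

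Among 10 stromal transcription factors, 8 had a log2 fold change below 0, as had 8457 of the 15421 tested genes, and 0 were called. At an unadjusted p under 0.05, 2 were lower, Ebf1 and Snai2, where the share over all tested genes was 6.5%. Ebf1, a relative of Ebf3 that acts in stroma and is required for B cell development, was at 39.3, 18.0, 46.8 and 49.0 CPM in DMSO 1 to 4 and at 13.6, 13.2, 6.65 and 18.1 CPM in SAG 1 to 4. DMSO 2 lay just below SAG 4 and the other DMSO mice lay above all SAG mice. Its log2 fold change was -1.57 ± 0.39 (SE) with an adjusted p of 0.0576 in edgeR, and DESeq2 called it lower (adjusted p = 0.00295). Ebf1 is also on the B lineage list, whose summed level was lower in every SAG mouse than in any DMSO mouse. That sum includes Ebf1 itself, so that it is not a separate observation. The log2 fold change of Ebf2 was -1.13, at an adjusted p of 0.696. Snai2, which was most abundant of the list per kb, had -0.88 (adjusted p = 0.277), and Runx2, the osteoblast and hypertrophic cartilage regulator, was at 99.9 to 139 CPM with DMSO and 88.6 to 112 CPM with SAG (log2 fold change -0.30, adjusted p = 0.451).

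**Figure D5:**
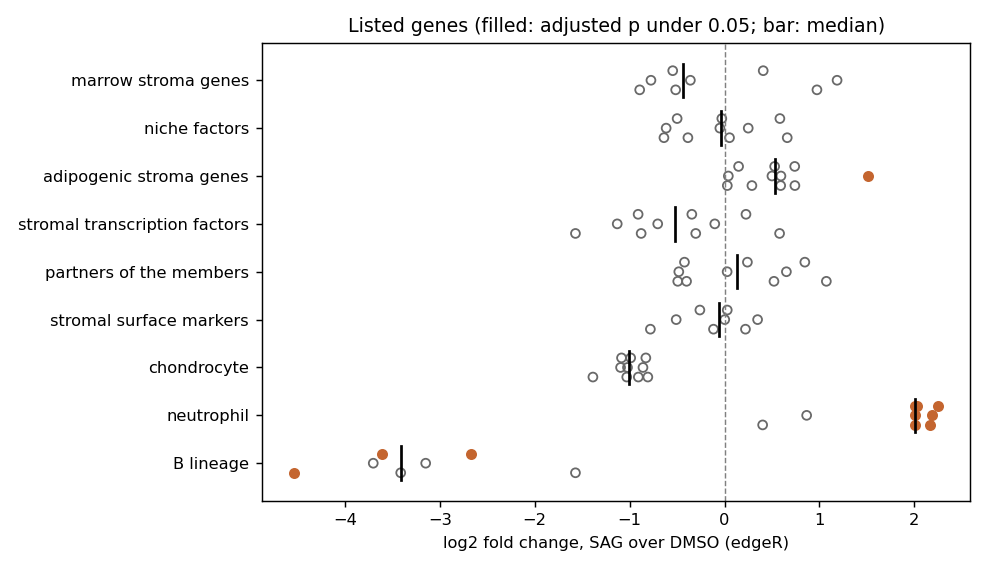
log2 fold change, SAG over DMSO (x axis), of each tested gene in the marrow stroma group, its 5 companion lists and 3 marker lists (y axis); filled points passed an adjusted p under 0.05 in edgeR, and bars are list medians. The marrow stroma genes lie on both sides of 0 with a median of -0.44 and no filled point, the neutrophil median is 2.01 and the B lineage median -3.41.

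Markers of other cells that could carry the 8 genes were also counted. Of 8 osteoblast genes all 8 had a log2 fold change below 0, with a median of -1.38, as had 8457 of the 15421 tested genes. At an unadjusted p under 0.05, 3 were lower, where the share over all tested genes was 6.5%. EdgeR called 0, DESeq2 3 lower and limma voom 2 lower, where the shares lower over all tested genes were 0.266%, 3.45% and 2.58%. Without DMSO 4, edgeR called 3 lower, in a fit whose lower calls over all tested genes were 343, against 41 with all libraries. Ibsp and Col1a1 were the most abundant per kb, and Bglap and Bglap2, near-identical copies among which reads may be split, had log2 fold changes of -2.63 and -2.47. The summed level of the 8 was 1843 to 8187 CPM with DMSO and 1457 to 3592 CPM with SAG. Endothelial genes (7 tested) had a sum of 39.4 to 127 CPM and 37.2 to 75.8 CPM, with Pecam1 highest among genes such as Cdh5, Stab2 and Tek, and 0 calls. Mural genes (6 tested) had 0 calls and a sum of 334 to 679 CPM and 141 to 393 CPM. Most of it was Cspg4, at 115 to 660 CPM over the 8 mice, so that the sum describes Cspg4 more than the list. Of the 6, 3 had a log2 fold change above 0 and 3 below, with a median of 0.02. Notch3 was at 0 counts in SAG 3 and Acta2 was at 4.69 to 24.6 CPM. The fibroblast list had 1 call of 4, Pi16, higher with SAG (log2 fold change 1.30, adjusted p = 0.0140), where 2.62% of all tested genes were called higher. The other genes of the list, Clec3b, Dpt and Mfap5, had log2 fold changes of -0.81, -0.58 and -0.55. The Pi16 call was lost without DMSO 2, DMSO 3 or SAG 4. Erythroid, macrophage and megakaryocyte genes gave 0 calls among 5, 5 and 4 tested genes. Hbb-bs was at 106 to 1601 CPM over the 8 mice, Cd68 at 30.1 to 78.4 CPM, and Itga2b at 5.20 to 63.5 CPM.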

How the data were processed

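RNA was extracted from sorted cells with the RNeasy micro kit, and stranded libraries of total RNA were made with a SMARTer pico input kit (Takara). The authors deposited raw counts per gene and library as whole numbers, without normalization; their processing notes name kallisto, DESeq2 and GRCm38 without roles, and how kallisto's estimates became whole-number counts is not given in the sources used here. Libraries were grouped by their labels, and 0 columns of the table were left unused.

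Genes were kept by filterByExpr (15421) and SAG was compared with DMSO by edgeR 4.0.16 (TMM, robust quasi-likelihood test, Benjamini-Hochberg adjustment over all tested genes, threshold 0.05) in R 4.3.3, with DESeq2 1.42.0 and limma 3.58.1 (voom) as alternatives. CPM were computed on TMM-scaled totals, and log2 CPM for profile differences used a prior count of 2. Intervals are at the 95% level from edgeR's standard errors and degrees of freedom. Levels per kb used the union of exons in GENCODE M21. Limits at 0 are 3 counts per library. Scripts were tested on simulated counts. The 8 genes and all lists were chosen with earlier results of these data known. Genes named from a list were those called, the 2 highest per kb and the 2 with the largest fold change, and some others (such as Kit, Leprot and Pdgfa) were named for their role; items withheld from the text are not reported here. Sequences came from RefSeq.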

Additional observations from a re-analysis of the deposited data

Results flagged for a closer look

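The summed level of the 4 fibroblast genes in DMSO 1 was 282 CPM, where the nearest DMSO mouse was at 83.8 CPM. Its gap to that mouse was 0.862 of the whole range of the group, above Dixon's 95% critical value for 4 samples. It was the 1 measure past that value among 48 tested (the 8 genes, the companion lists and the marker lists, separately in DMSO and in SAG), where chance flags about 1 in 20. DMSO 1 was also the mouse with the highest Kitl, Foxc1, Ebf3, Pdgfra and Pdgfrb, none of which passed the same criterion.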

How the results depend on the processing

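Of 126 alternative fits of the 8 genes, 117 kept both the direction and the side of the threshold. Limma voom put Foxc1 past the threshold, so that 1 of the 8 was called lower, and it turned Kitl to 0.95, Adipoq to -0.37 and Ebf3 to 0.027. The other turns came without DMSO 1 (Kitl 1.19, Ebf3 0.39, Pdgfra 0.059) and with the replicate block (Kitl 1.96, Ebf3 0.13); the cause was not tested. With 1 library left out, Kitl ranged from -1.89 to 1.19, Ebf3 from -0.74 to 0.39, Pdgfra from -0.78 to 0.059, Adipoq from 0.48 (without SAG 4) to 1.60 (without SAG 3) and Lepr from 0.096 (without SAG 4) to 0.73 (without DMSO 1). Kitl and Adipoq could not be tested with at least 10 counts in every library. The median log2 fold change of the 8 was -0.60 to 0.56 with 1 library left out, 0.24 with the replicate block and -0.49 to -0.17 otherwise. The libraries share only a number. With each gene's group mean subtracted from log2 CPM, same-numbered mice correlated at 0.0102 to 0.120 and differently numbered ones at -0.117 to 0.084. The block moved the calls over all genes from 404 and 41 to 334 higher and 18 lower. Per 1000 chondrocyte counts, a scale added after seeing the data, the log2 ratios of group means turned to 0.66 for Kitl, 0.22 for Foxc1, 0.93 for Ebf3, 0.62 for Pdgfra and 0.75 for Pdgfrb.

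Of the companion genes, 49 passed the filter of the main fit. Those called higher were 1 with edgeR (Hp), 3 with DESeq2 (Hp, Adipor1 and Cxcr4), 3 with limma voom (Hp, Adipor1 and Adipor2), 2 with at least 10 counts in every library and 2 with Ddx3y, a Y-linked gene, as a covariate (Hp and Adipor1 in both). Over all tested genes, 2.62% were called higher with edgeR, 6.82% with DESeq2 and 6.45% with limma voom, shares at which these counts are no result about the companions. Companion genes called lower were 0 with edgeR and 1, Ebf1, with DESeq2 and with at least 10 counts in every library, where 0.266% of all tested genes were lower with edgeR and 3.45% with DESeq2. Over all genes, DESeq2 called 818 higher and 414 lower, limma voom 995 and 398, and the filter of at least 10 counts 87 lower. With 1 library left out, 80 to 1017 genes were called higher and 4 to 343 lower, the extremes being without DMSO 2 and DMSO 4 and without DMSO 3 and DMSO 4; companions called were 0 to 3 higher and 0 to 1 lower. The 8 genes gave 0 calls in each such fit. Low counts limit Kitl and Adipoq, which had libraries at 0.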
